A study of Arabidopsis thaliana with 12 samples.

Results

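Pentatricopeptide repeat (PPR) proteins form one of the largest protein families of land plants. They are encoded in the nucleus, and most are imported into chloroplasts or mitochondria. There they bind single-stranded RNA through tandem repeats of a short helical motif and take part in splicing, C-to-U editing, end processing, stabilisation and translation of organelle transcripts. Many are needed for the making of photosynthetic or respiratory complexes, and photosynthetic electron transport is where paraquat acts.

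The 9 genes described here, AT3G22150, AT4G14050, AT5G39980, AT3G26630, AT2G17670, AT3G51320, AT4G21170, AT3G49740 and AT2G30100, are PPR genes for which the array carries a probe that lists no other gene. They were found by locus in the probe-to-gene table of the platform and are 9 of 691 genes with such a probe. The sources used here give them a locus but no gene name, so no individual role is stated. Total RNA was measured in 12 samples of Arabidopsis thaliana, all from wild-type Landsberg plants. In 6 samples the plants had received 50 µM paraquat, a herbicide that diverts electrons from photosystem I to oxygen in the light, and in the other 6 they had received water. Both groups went through 12 h of darkness and then 30 min of renewed light before sampling. The labels number the samples 1 to 6 within each group, name no tissue, and leave unsaid whether a number is a plant or a repeated hybridisation. The p-values therefore reflect the variation among these 12 samples alone, part or all of which may be technical.

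Intensities are given on the authors' linear scale, whose reference is unknown, and log2 fold changes, taken after quantile normalization, are paraquat minus water. None of the 9 genes had a value of 0 in any sample. Intensities of different probes are not compared with each other. Samples 1 and 2 stood apart within each group. Their log2 values correlated with those of samples 3 to 6 at 0.876 to 0.892 under paraquat and at 0.756 to 0.797 under water, while samples 3 and 4 correlated with samples 5 and 6 at 0.912 to 0.929 under paraquat and at 0.841 to 0.866 under water. Neighbouring numbers (1 with 2, 3 with 4, 5 with 6) correlated at 0.920 to 0.949 under paraquat and at 0.859 to 0.937 under water. Results are therefore also given without samples 1 and 2 of both groups, and with neighbouring numbers averaged where that changed a call. Fold changes over the whole array also followed the probe number in a repeating period. The medians of 24 steps of that period ran from -0.77 to 0.61, so values after centring each sample by step are given as well.

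Of the 9 PPR genes, 4 were higher and 1 was lower under paraquat at an adjusted p under 0.05 (limma, Benjamini-Hochberg over 3439 probes), against 52.5% of all probes called in either direction, 24% higher and 28.5% lower. The balance over all probes turned with the scaling, with 1111 higher and 738 lower as deposited and 716 higher and 1115 lower with median centring. A share of 5 in 9 is near that background. The count was 7 of 9 without samples 1 and 2, against 49.3% of all probes, and 7 of 9 with the sample number as a block, against 57.1%. It was 4 of 9 with neighbouring sample numbers averaged, against 33.7%, and 4 of 9 with position centring, averaging and the pair as a block together, against 26.9%. AT2G30100, AT3G22150, AT5G39980 and AT3G26630 rose, and AT4G14050 fell. The log2 fold changes spanned -1.34 to 2.04, with a median of 0.41 and an SD of 1.12 over the 9 genes, beside a median of -0.04 and an SD of 0.97 over all probes. Of the 9 genes, 5 changed by at least 2-fold, a size reached by 28.1% of all probes. They were the 5 called genes, and passing the threshold favours large changes. The deposited ranges of the groups did not overlap in 4 of the 9, 3 higher and 1 lower, against 35.4% of all probes, 20.8% higher and 14.6% lower. In bulk RNA, fewer cells expressing a transcript and less of it per cell cannot be told apart.

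**Figure D1:**
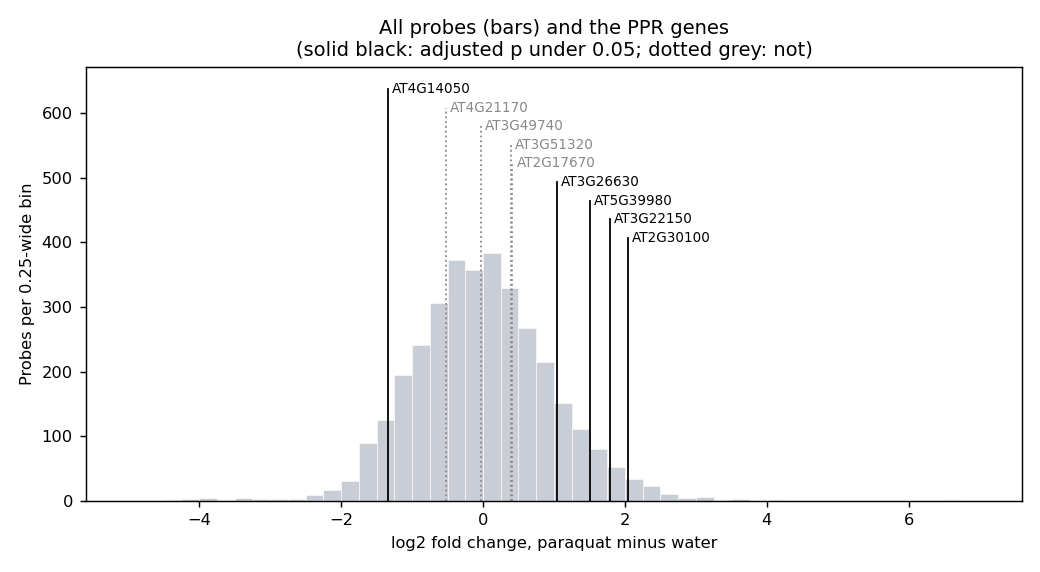
Distribution of the log2 fold change, paraquat minus water, over 3439 probes (grey bars, number of probes in each 0.25-wide bin), with the 9 PPR genes as vertical lines whose height has no meaning. Black solid lines mark the 5 genes at an adjusted p under 0.05 and dotted grey lines the other 4; the genes span -1.34 to 2.04 and lie on both sides of the array median of -0.04.

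AT2G30100 showed the largest rise. Its intensity ran from 2.30 to 2.58 with a median of 2.40 under paraquat, and from 0.347 to 0.637 with a median of 0.522 under water. The 6 paraquat samples lay close together and far above every water sample. The rise was 4.10-fold (log2 2.04 ± 0.14, SE, n = 6 per group, adjusted p = 5.49e-07), which ranks 78th from the top among 3439 probes. At equal sample number the difference lay between 1.68 and 2.55. It was 2.15 without samples 1 and 2 (adjusted p = 5.47e-05) and 1.67 after position centring.

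AT3G22150 followed with a 3.45-fold rise (log2 1.79 ± 0.23, SE, n = 6 per group, adjusted p = 4.78e-05). Intensities were 1.09 to 1.19 with a median of 1.15 under paraquat, against 0.168 to 0.449 with a median of 0.281 under water. The paraquat samples were nearly equal, with an SD of 0.11 on the normalized log2 scale, whereas the water samples had an SD of 0.57. Water samples 5 and 6 were the highest of their group, at 0.449 and 0.405, and water sample 2 was the lowest. The difference at equal number was accordingly smallest for numbers 5 and 6, at 1.09 and 1.30, and largest for number 2, at 2.40. It was 1.58 without samples 1 and 2 (adjusted p = 0.000945) and 1.42 after position centring (adjusted p = 0.000862). The water intensities were low, beside a 5th percentile of 0.118 for values above 0 on the array. With 0.1 added to the normalized values before log2, the log2 fold change was 1.49 (adjusted p = 1.51e-05).

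AT5G39980 rose 2.85-fold (log2 1.51 ± 0.28, SE, n = 6 per group, adjusted p = 0.000804). Its intensity lay between 1.81 and 2.97 with a median of 2.02 under paraquat and between 0.292 and 0.975 with a median of 0.846 under water, so that the groups were fully separate. Samples 1 and 2 were the highest of the paraquat group, at 2.34 and 2.97, and the lowest of the water group, at 0.292 and 0.462. The difference was 2.78 and 2.42 at numbers 1 and 2 and between 0.84 and 1.10 at the other 4 numbers. Without samples 1 and 2 the size was 0.96 (adjusted p = 0.000161). Position centring gave 0.92 (adjusted p = 0.0209). The call was lost when neighbouring sample numbers were averaged with the pair as a block (adjusted p = 0.0657, and 0.154 with position centring added).

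AT3G26630 was called higher although its group ranges overlapped. Intensities ran from 2.28 to 4.77 with a median of 3.55 under paraquat and from 0.745 to 3.22 with a median of 1.91 under water. In both groups samples 1 and 2 were the highest and samples 5 and 6 the lowest. At each number, however, the paraquat sample was above the water sample, by 0.78 to 1.50 on the log2 scale. The mean log2 fold change was 1.04 ± 0.37 (SE, n = 6 per group, adjusted p = 0.0315). With the sample number as a block the SE was 0.13 and the adjusted p = 0.000778. The call was lost with median centring (0.70, adjusted p = 0.145) and with neighbouring numbers averaged (adjusted p = 0.182). It was kept when the averaged pair was also a block (adjusted p = 0.0288, and 0.0214 with position centring added) and without samples 1 and 2 (1.15, adjusted p = 0.0344). It was also lost when either paraquat sample 1, 2, 3 or 4 or water sample 5 or 6 was left out, with adjusted p between 0.0509 and 0.0663. Position centring moved the value up, to 1.55 (adjusted p = 0.00254). Its probe lay in a step whose median was -0.58.

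A further probe lists AT3G26630 together with a second gene, AT2G42920, so its signal cannot be assigned to either. It read 1.75 to 2.42 under paraquat and 0.209 to 1.17 under water, a log2 fold change of 1.94 ± 0.37 (SE, n = 6 per group, adjusted p = 0.000886). It was at 1.46 without samples 1 and 2 and at 1.41 after position centring, and the call was lost with position centring, averaging and the pair block together (adjusted p = 0.0705). Both probes were higher under paraquat at all 6 numbers. Within the water group they ordered the samples differently. Samples 1 and 2 were the lowest water samples on the shared probe and the highest on the probe of AT3G26630 alone.

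Among the 9 PPR genes described here, only AT4G14050 was called lower. Its intensity lay between 0.568 and 0.801 with a median of 0.767 under paraquat, against 1.20 to 2.44 with a median of 1.48 under water, without overlap. The signal was 2.53-fold lower under paraquat (log2 -1.34 ± 0.17, SE, n = 6 per group, adjusted p = 5.09e-05), 248th from the bottom of 3439 probes. Water samples 1 and 2 were the brightest, at 2.36 and 2.44. The difference at equal number ran from -1.80 to -0.81. It was -1.11 without samples 1 and 2 (adjusted p = 0.000539) and -0.83 after position centring (adjusted p = 0.000274).

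**Figure D2:**
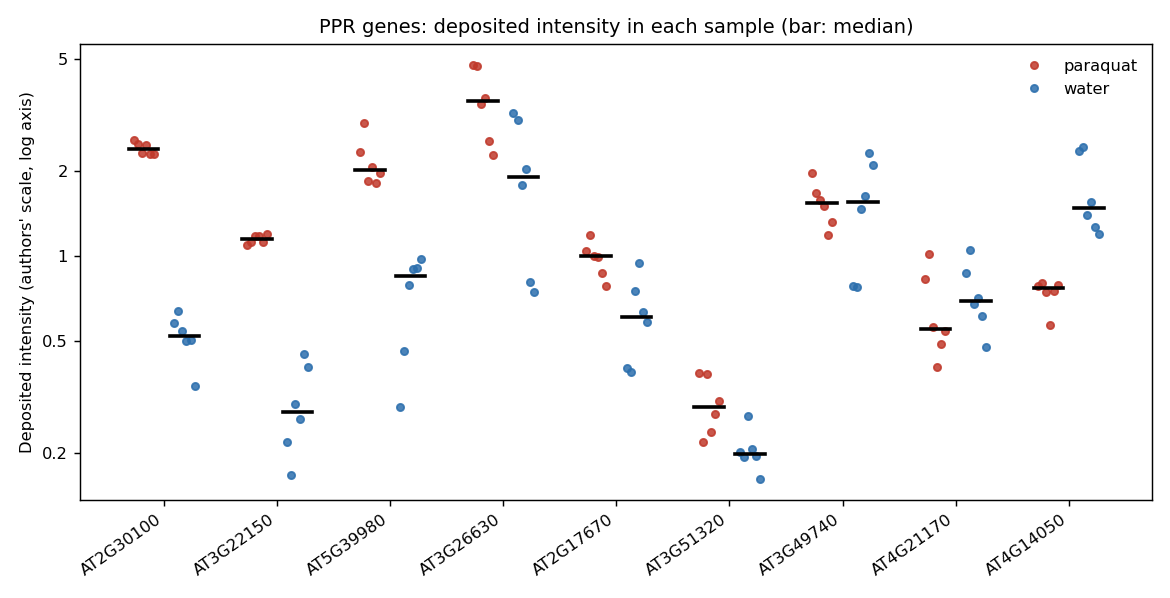
Deposited intensity (authors' scale, log axis) of the 9 PPR genes in each of 6 paraquat samples (red, left) and 6 water samples (blue, right), spread from left to right by sample number, with a bar at the group median. The groups are separate for AT2G30100, AT3G22150, AT5G39980 and AT4G14050 and overlap for the other 5 genes.

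The other 4 PPR genes did not pass the threshold. AT2G17670 had intensities of 0.784 to 1.19 with a median of 0.998 under paraquat and of 0.389 to 0.943 with a median of 0.608 under water, and its log2 fold change was 0.41 ± 0.19 (SE, n = 6 per group, adjusted p = 0.0944). Water samples 1 and 2 were the lowest of their group, with differences of 0.91 and 1.23 at those numbers and of -0.17 to 0.21 at the other 4. The value was 0.08 without samples 1 and 2, 0.73 with the deposited scale (adjusted p = 0.0130) and -0.30 after position centring, so it has no settled direction. The call also appeared without water sample 4 (0.54, adjusted p = 0.0214).

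AT3G51320 was dim, at 0.219 to 0.383 with a median of 0.291 under paraquat and 0.162 to 0.271 with a median of 0.199 under water. The 5th percentile of values above 0 on the array was 0.118. Its log2 fold change was 0.39 ± 0.16 (SE, n = 6 per group, adjusted p = 0.0551). It passed with the sample number as a block (adjusted p = 0.0328), on the deposited scale (0.53, adjusted p = 0.0196) and with cyclic loess (0.53, adjusted p = 0.0199), and it was at 0.12 after position centring (adjusted p = 0.622). It did not pass with neighbouring numbers averaged and the pair as a block (adjusted p = 0.101) or with median centring (0.19, adjusted p = 0.358). Nor did it pass without samples 1 and 2 (0.46, adjusted p = 0.0700). Leaving out paraquat sample 2, paraquat sample 4 or water sample 3 also brought it past the threshold, with adjusted p between 0.0163 and 0.0494.

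AT4G21170 read 0.404 to 1.01 with a median of 0.552 under paraquat and 0.474 to 1.05 with a median of 0.694 under water. On the normalized scale it was lower under paraquat at all 6 numbers, by 0.14 to 1.02. The log2 fold change was -0.52 ± 0.23 (SE, n = 6 per group, adjusted p = 0.0735). With the sample number as a block the adjusted p was 0.00991, and without samples 1 and 2 it was 0.0143 (-0.56). It also passed without paraquat sample 2 (adjusted p = 0.0220) or without water sample 6 (adjusted p = 0.0387). It did not pass with neighbouring numbers averaged, without a block (adjusted p = 0.251) or with the pair as a block (adjusted p = 0.0687). On the deposited scale the value was -0.22 (adjusted p = 0.477), and at number 6 the deposited intensity was 0.542 under paraquat and 0.474 under water. After position centring the value was -0.07 (adjusted p = 0.806). Its probe lay in a step with a median of -0.68.

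AT3G49740 had almost equal medians, 1.54 under paraquat and 1.55 under water, but the samples were far from uniform. Paraquat intensities ran from 1.19 to 1.96 and water intensities from 0.778 to 2.32. The log2 fold change was -0.03 ± 0.26 (SE, n = 6 per group, adjusted p = 0.937), with an interval of -0.59 to 0.53. At numbers 1 and 2 the paraquat sample was higher, by 1.06 and 0.78. At numbers 3 and 4 the difference was -0.01 and -0.24, and at numbers 5 and 6 it was -1.01 and -0.77. Without samples 1 and 2 the log2 fold change was -0.50 (adjusted p = 0.0369). After position centring of all 12 samples it was -0.30 (adjusted p = 0.303).

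**Figure D3:**
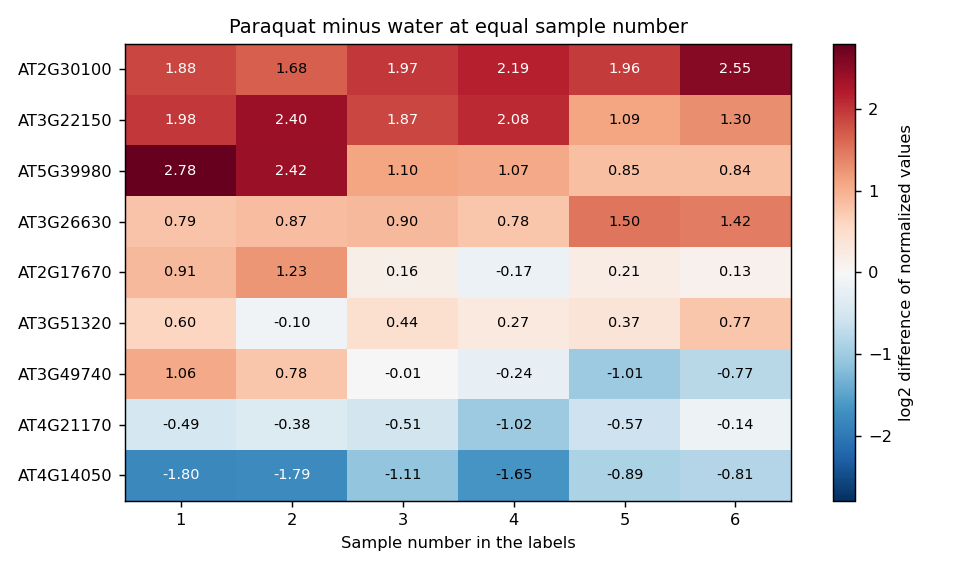
Log2 difference between the paraquat and the water sample of equal number (columns 1 to 6) for the 9 PPR genes (rows), on quantile-normalized values, red where paraquat is higher and blue where it is lower. AT2G30100, AT3G22150, AT5G39980 and AT3G26630 are red in all 6 columns, AT4G14050 and AT4G21170 are blue in all 6, and AT3G49740 runs from 1.06 at number 1 to -1.01 at number 5.

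At all 6 numbers, 6 of the 9 genes moved 1 way, 4 higher and 2 lower. Over all probes 53.4% did so, 24.4% higher and 29% lower. Ordered by fold change, the 95% intervals of all 8 neighbouring pairs of genes overlapped, which does not show that neighbours responded alike. The intervals of AT2G30100 (1.74 to 2.33), AT3G22150 (1.29 to 2.29) and AT5G39980 (0.89 to 2.13) lay entirely above those of the 4 genes that did not pass, the highest of which ended at 0.84. After position centring that of AT5G39980 was 0.29 to 1.55 and overlapped those of AT3G51320 and AT4G21170, which ended at 0.52 and 0.39. With neighbouring numbers averaged, the highest interval of the 4 genes ended at 1.10 (AT2G17670). That was above the lower ends for AT3G22150 (0.98) and AT5G39980 (0.56). These intervals are not adjusted for the number of genes, and differences between genes were not tested. The spread between samples was larger under water than under paraquat for 7 of the 9 genes, against 65% of all probes. The median SD of the 9 genes was 0.23 under paraquat and 0.46 under water, beside 0.25 under paraquat and 0.35 under water over all probes. AT3G51320 and AT4G21170 were the 2 genes with the larger SD under paraquat.

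The fold changes of 7 of the 9 genes had the sign of the median of their position step, against 69.8% of all probes. The exceptions were AT3G26630 and AT3G49740. After centring by step the same 5 genes passed in the same directions, against 47.4% of all probes, with values of 1.67 for AT2G30100, 1.55 for AT3G26630, 1.42 for AT3G22150, 0.92 for AT5G39980 and -0.83 for AT4G14050. The median of the 9 genes was then 0.12 and their SD 0.94. The scaling between arrays moved the median of all probes to 0.19 as deposited and to -0.16 with median centring. The median of the 9 PPR genes was 0.73 as deposited and 0.39 with median centring, above that of all probes. Median centring shifts all probes of a sample alike, so the gap between the medians could not differ between these settings. With cyclic loess the median was 0.53 for the 9 genes and -0.007 for all probes.

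**Figure D4:**
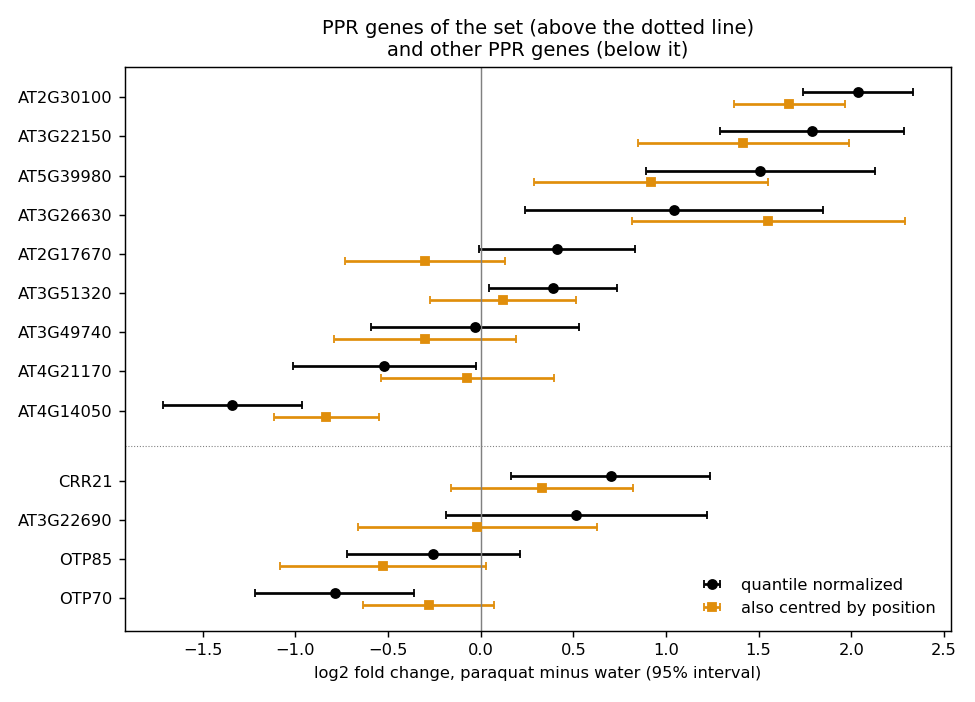
Log2 fold change, paraquat minus water, with its 95% interval, for the 9 PPR genes (above the dotted line) and 4 other PPR genes (below it), after quantile normalization (black circles) and after further centring by probe position (orange squares). AT2G30100, AT3G22150, AT5G39980, AT3G26630 and AT4G14050 keep their side of 0 under both, whereas AT2G17670 is at 0.41 and -0.30.

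Of 48 other PPR genes listed by name, 4 had a probe of their own, and 1 was higher, 1 was lower and 2 did not pass, beside 24% of all probes higher and 28.5% lower. CRR21, an editing factor needed for the chloroplast NDH complex, read 1.16 to 1.42 with a median of 1.34 under paraquat and 0.378 to 1.21 with a median of 0.654 under water, and its log2 fold change was 0.70 ± 0.25 (SE, n = 6 per group, adjusted p = 0.0309). OTP70, a chloroplast protein linked to the splicing of a plastid transcript, read 0.642 to 0.977 with a median of 0.790 under paraquat and 0.726 to 1.59 with a median of 1.21 under water, and it fell by 0.79 ± 0.20 (SE, n = 6 per group, adjusted p = 0.00514). Neither passed after position centring, CRR21 at 0.33 (adjusted p = 0.258) and OTP70 at -0.28 (adjusted p = 0.175), and neither passed without samples 1 and 2, where CRR21 was at 0.64 (adjusted p = 0.163) and OTP70 at -0.42 (adjusted p = 0.0806). Averaging neighbouring numbers ended both calls (adjusted p = 0.147 for CRR21 and 0.0843 for OTP70). CRR21 did not pass either with median centring (adjusted p = 0.0575) or when any of paraquat samples 3, 4 and 6 or water samples 2, 5 and 6 was left out (adjusted p of 0.0513 to 0.0667). OTP85, a chloroplast editing factor, was at -0.26 ± 0.21 (SE, adjusted p = 0.34), and AT3G22690 was at 0.52 ± 0.32 (SE, adjusted p = 0.201). After position centring OTP85 was at -0.53 (adjusted p = 0.111) and AT3G22690 at -0.020 (adjusted p = 0.965). Without samples 1 and 2 OTP85 was at -0.11 (adjusted p = 0.685) and AT3G22690 at 0.57 (adjusted p = 0.137). AT3G22690 was dim, at 0.247 to 0.407 under paraquat and 0.0894 to 0.317 under water. The lists of editing partners (10 genes), organelle splicing factors (8), organelle transcription (8) and organelle RNA stability (12) had 0 genes with a probe of their own.

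The genes with one-gene probes whose normalized log2 values over the 12 samples were most like those of the 5 called PPR genes were named as a description. The 12 samples fall into 2 groups, so a gene that differs between the groups resembles any other that does, and all values share the same arrays. For AT2G30100 these were AT3G52960 (Pearson's r 0.990) and AT3G25680 (0.983). For AT3G22150 they were AT5G02830 (0.971) and AT5G58330 (0.960), which the gene table names as an NADP-dependent malate dehydrogenase. For AT5G39980 they were AT5G33390 (0.984) and AT1G74070 (0.981), for AT3G26630 AT4G32060 (0.968) and AT2G27290 (0.925), and for AT4G14050 AT2G03390 (0.977) and CUTA (0.971). No gene was named for more than 1 of the 5. Only the 2 most alike genes of each were taken, so this does not show that the 5 differ in their profiles.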

How the data were processed

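Total RNA of 12 samples, 6 paraquat and 6 water, was measured on an array of 3439 probes. The authors deposited linear intensities, with column means of 0.944 to 1.07 and 108 to 148 zeros per column; scanner, background correction and scaling are not given in the sources used here. Precision is set by the number of independent samples, since an array has no depth. The labels leave unsaid whether the 6 samples per group are independent. Column medians were 0.563 to 0.635 under paraquat and 0.443 to 0.491 under water, more than 10% apart, so zeros were set to the lowest positive value of their column and the columns were quantile normalized, and log2 was taken. The test was two-sided, by lmFit and eBayes (limma 3.58.1, R 4.3.3) on all 12 samples, unblocked, adjusted by Benjamini-Hochberg over all probes at 0.05. The fit was tested on simulated data. Figures were drawn with matplotlib 3.10.9.

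Per the platform's probe table, 692 probes list 1 gene, 870 several and 1877 were not listed. Of the 9 genes, 9 matched RefSeq. The genes named are all 9, every gene of 5 organelle RNA lists with a probe of its own, and the 2 most alike genes of each called member. The members and lists were chosen with earlier results of these data known. Coordinates were not used, since no source names the array's build, and sequence features and a search for further PPR proteins by sequence were not run.

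Equal sample numbers deviated together (correlations of deviations from the group means 0.337 to 0.505 over 3186 probes). The same correlations were not computed between unequal numbers, so these values do not show that equal numbers are pairs. The labels do not state a pairing either, and the block by sample number is therefore an assumption. Position centring subtracted each sample's median within each of 24 steps of the repeating probe-number period. Alternatives were scaling, zeros, a dim-probe filter, the block, averaging of neighbouring numbers, position centring and leaving out samples. Leaving out samples 1 and 2 was chosen after seeing the data.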

Additional observations from a re-analysis of the deposited data

Results flagged for a closer look

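In 1 of 28 sets of 6 samples (9 PPR genes, 4 other PPR genes and the shared probe, in 2 groups) a single sample had a wide gap to its group by Dixon's criterion (95%), and chance flags about 1 in 20. AT4G14050 in paraquat sample 4 was at -0.94 on the normalized log2 scale, against -0.59 for the nearest of the other paraquat samples (gap over range 0.694). The fall of AT4G14050 passed whichever of the 12 samples was left out, with a log2 fold change of -1.41 to -1.23.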

How the results depend on the processing

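AT2G30100, AT3G22150 and AT4G14050 kept direction and call under all 23 alternatives run. The number of PPR genes called higher lay between 3 and 6, against 4; the number called lower, 1 of 9, was 2 with the replicate block, which pairs equal sample numbers, 3 without samples 1 and 2 of both groups, and 1 to 2 with each sample left out in turn. The block of equal numbers also called AT3G51320 and ended no call among the 9; with neighbours averaged and their pair as a block, AT3G51320, AT4G21170 and AT5G39980 did not pass (adjusted p = 0.101, 0.0687 and 0.0657). AT3G49740, called only without samples 1 and 2 (-0.50), was at 0.13 as deposited, at 0.054 with cyclic loess and at -0.17 to 0.10 with each sample left out. AT2G17670 was at -0.30 and AT3G22690 at -0.020 after position centring, with and without averaging and the pair block. Of the 4 other PPR genes, the count higher, 1, was 0 with median centring, with neighbouring numbers averaged (with or without the block), after position centring (with or without both) and without samples 1 and 2, and 0 to 1 with each sample left out; the count lower, 1, was 0 under the same settings other than median centring, and 1 with each sample left out. Over all probes 826 higher and 979 lower became 1111 higher and 738 lower as deposited, 716 and 1115 with median centring, 492 and 668 with neighbours averaged, 541 and 687 with the block of the pair added, and 418 higher and 508 lower with position centring as well. The causes were not tested; averaging leaves 3 columns per group. The filter on dim probes left 8 of the 9 genes and took out AT3G51320. Of the 4 other PPR genes it took out AT3G22690.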
